A study of Mus musculus with 10 samples.

Results

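The forkhead transcription factors Foxp3, Foxp1, Foxp4, Foxo1, Foxo3, Foxo4 and Foxk1 were followed through 5 sorted populations of splenic CD4+ T cells. These 7 genes were chosen by name, with earlier results of these data known, and each was read from the row of its symbol in all 10 count tables. They are 7 of 48321 gene symbols counted, and all 7 were among the 13796 genes that passed a filter on low counts. The cells came from C57BL/6 mice carrying a Foxp3-ires-gfp reporter, and the sort read GFP as FoxP3 and an antibody stain as CD25. WT mice gave FoxP3+CD25+ cells (Tregs) and FoxP3-CD25- cells (non-Tregs). Satb1 F/F:Thpok-cre mice (KO), in which Cre is active in T cells committed to the CD4 lineage and so throughout the CD4+ compartment, gave those populations and FoxP3+CD25- cells. Each of the 5 groups had 2 libraries. No group had been treated, and the methods give young adult mice of both sexes for the study as a whole. The alleles carried by WT mice beside the reporter were not stated.

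Forkhead factors bind DNA through a winged-helix domain that places a recognition helix in the major groove. FoxP3 is the lineage factor of Tregs, and it works as a dimer and in complexes with FoxP1, FoxP4 and chromatin regulators. FoxO factors are driven out of the nucleus when Akt phosphorylates them after antigen-receptor, costimulatory or cytokine signals, and in resting T cells they keep homing and survival genes on. FoxK1 is a repressor that recruits the Sin3 complex and acts on autophagy and glycolysis genes.

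The coding bases of the recognition helix are shown because they are what makes the 7 genes 1 family. Each line, for 6 of the 7 genes, is the coding strand of 45 bases, written 5′ to 3′ and joined across 1 exon junction, from GENCODE M21 transcripts on mm10. Capitals mark the 22 bases that are equal in all 7 genes.
Foxp3: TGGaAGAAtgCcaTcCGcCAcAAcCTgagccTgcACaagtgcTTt
Foxp4: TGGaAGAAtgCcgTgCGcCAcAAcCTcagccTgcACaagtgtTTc
Foxo1: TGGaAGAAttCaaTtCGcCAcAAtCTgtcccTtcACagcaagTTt
Foxo3: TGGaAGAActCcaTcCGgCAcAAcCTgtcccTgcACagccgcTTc
Foxo4: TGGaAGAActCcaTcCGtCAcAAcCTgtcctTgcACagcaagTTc
Foxk1: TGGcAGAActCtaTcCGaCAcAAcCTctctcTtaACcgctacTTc
On mm10 the stretch lies at chrX:7592746-7592938 (plus strand) in Foxp3 and chr17:47871313-47874640 (minus) in Foxp4. It lies at chr3:52269417-52345077 (plus) in Foxo1, chr10:42197863-42274821 (minus) in Foxo3, chrX:101255268-101258215 (plus) in Foxo4 and chr5:142450382-142451477 (plus) in Foxk1, introns included. Of the 15 residues encoded, 9 are equal in all 7 proteins. Foxo1 and Foxo4 encode the same 15 residues there. Foxp3 shares 14 with Foxp4, 12 with each FoxO protein and 10 with Foxk1. Over the whole coding sequence, the Akt consensus (arginine, any residue, arginine, any pair of residues, then serine or threonine) matched 3 times in each FoxO protein, once in Foxk1 and never in a FoxP protein. A zinc finger of the C2H2 form matched once in each FoxP protein and in no other. These matches are descriptions of sequence, not sites shown to be used.

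Gene counts per library ran from 6094952 to 12410064, with a median of 7721649, and 3 counts, the floor used for an absent gene, equal 0.242 to 0.492 CPM, the counts scaled per library by its effective size. Satb1 itself was at 378 and 477 CPM in the WT Treg libraries and at 597 and 532 in the KO Treg libraries, and at 816 and 879 against 840 and 681 in FoxP3-CD25- cells. The KO FoxP3+CD25- libraries were higher than all of these, at 1183 and 991 CPM. Satb1 was not called lower in the libraries labelled KO, with log2 fold changes of 0.40 in Tregs (edgeR FDR = 1.0) and -0.16 in FoxP3-CD25- cells (FDR = 0.927). Because the counts pool all exons, they do not show whether the floxed segment was lost, and KO is used as the label. Both WT libraries numbered 1 held 14487 and 16362 Xist counts and no Y-linked counts, as in female cells. The other 8 held at most 4 Xist counts and 3039 to 4750 Y-linked counts, as in male cells. Sex was thus not balanced between WT and KO, which bears on every comparison between them. It bears most directly on Foxp3 and Foxo4, both on chromosome X. Markers of CD4+ T cells (10 genes) summed to 4800 to 6030 CPM in every library, and B-cell markers (8 genes) to at most 35.1. CD8 T and NK cell markers summed to at most 43.4 CPM (8 genes), myeloid markers to 25.0 (8), dendritic-cell markers to 8.05 (7) and red-cell markers to 3.5 (6). In bulk samples such as these, fewer cells of a type and less RNA per cell cannot be told apart.

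All 7 genes were well above the floor in every library, from 148 counts (Foxp3 in a FoxP3-CD25- library) to 6851 counts (Foxo1). Foxp3 spanned 41.2-fold from its lowest to its highest library, Foxp4 2.09-fold, Foxk1 1.55-fold and Foxo4 1.42-fold. Foxo3 spanned 1.36-fold, and Foxp1 and Foxo1 1.3-fold each. On the log2 scale, the spans of Foxp1 (0.38), Foxo1 (0.38) and Foxo3 (0.44) were below the median span of the 5982 genes with a median of at least 5 log2 CPM (0.48). Scaled to the exon length of each gene, the median level was 74.0 CPM per kilobase for Foxp3 and 65.7 for Foxo1. It was 34.8 for Foxk1, 29.7 for Foxp1, 24.2 for Foxp4, 21.4 for Foxo3 and 17.7 for Foxo4.

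**Figure D1:**
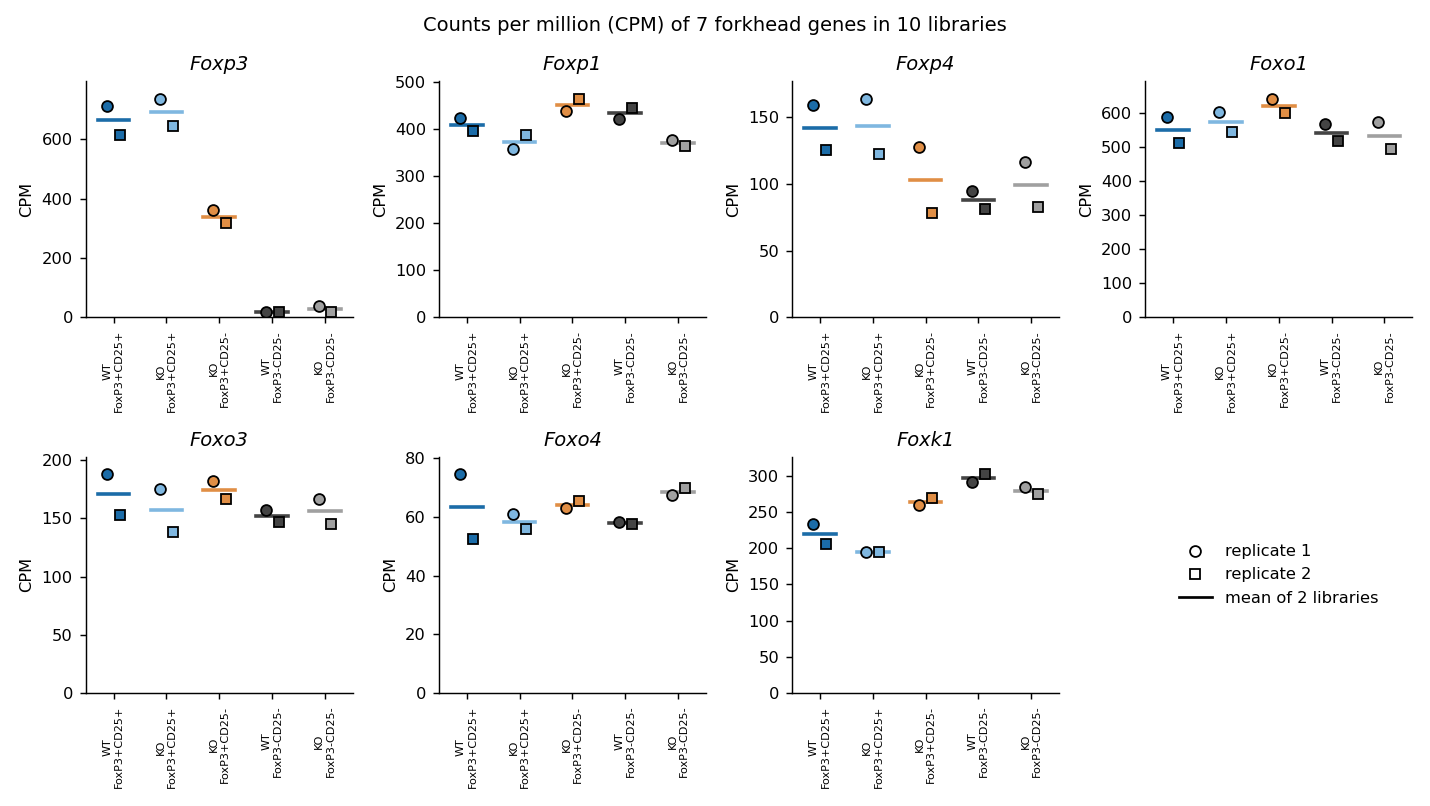
CPM (vertical axes, each from 0) of the 7 forkhead genes in the 5 sorted groups, with circles for replicate 1, squares for replicate 2 and bars for the mean of 2 libraries. Foxp3 falls into 3 levels, Foxk1 is lowest in both FoxP3+CD25+ groups, and the FoxO genes and Foxp1 stay within 1.42-fold over all 10 libraries.

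A gene was called when its log2 fold change passed an FDR of 0.05 in edgeR's test over all 13796 genes. The p-values rest on the spread between the 2 libraries of a group, pooled over the 5 groups and shared across genes. Libraries read as 1 mouse were not paired in this test. At most 2 of the 7 genes were called in any comparison by edgeR without a block. In WT Tregs against FoxP3-CD25- cells 2 of 7 were called, Foxp3 (the gate) and Foxk1, where 10.9% of 13796 genes were called. In KO the same 2 were called, against 6.34% of all genes. Foxp3, again the gate, was the only gene of the 7 called between KO FoxP3+CD25- and KO FoxP3-CD25- cells, where 1.67% of genes were called. Between KO FoxP3+CD25- cells and KO Tregs, both GFP+, Foxp3 and Foxk1 were called, against 7.02%. In the first 3 of these 4 comparisons the sort set the Foxp3 call, so it cannot be read against the share of all genes. In a fit with the mouse as a block the counts of the 7 genes in these 4 comparisons were 3, 3, 1 and 4, where 19.1%, 12.0%, 5.7% and 15.1% of all genes were called. Between KO and WT, 0 of 7 were called in Tregs (none at an unadjusted p under 0.05), where 0.00725% of all genes were called by edgeR. In FoxP3-CD25- cells 0 of 7 were called (2 at an unadjusted p under 0.05, Foxp3 and Foxp1), against 0.145% of genes. For the difference of the Treg contrast between genotypes, 0 of 7 (none at an unadjusted p under 0.05) and 0.0% of all genes were called by edgeR, with 685 genes at an unadjusted p under 0.05 and 25 genes called by DESeq2. DESeq2 called none of the 7 in these last 3 comparisons. The comparisons within KO share libraries, so their values are not independent. Groups of 2 libraries can lie apart by chance, and the share of all genes whose groups did not overlap was not counted.

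Foxp3, the Treg lineage factor, lies at chrX:7573644-7595245. Its level was 714 and 616 CPM in the WT Treg libraries and 738 and 645 CPM in the KO Treg libraries. The KO FoxP3+CD25- libraries were at 360 and 317 CPM. The FoxP3-CD25- libraries were at 18.6 and 17.9 CPM (WT) and 38.8 and 19.5 CPM (KO). Both Treg groups overlapped, the FoxP3+CD25- libraries lay below them, and all FoxP3-CD25- libraries lay far below. The gap between GFP+ and GFP- groups is what the sort selected, and it is given as a description: the fitted fold was 36.4 in WT Tregs, 24.0 in KO Tregs and 11.7 in KO FoxP3+CD25- cells, each against the FoxP3-CD25- cells of that genotype.

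Within GFP+ cells of KO mice, Foxp3 fell by 1.03 on the log2 scale (SE 0.22, edgeR FDR = 0.0153) from FoxP3+CD25+ to FoxP3+CD25- cells, to 0.49 times the level. CD25 was the gate between these groups, and Il2ra, which encodes it, went from 626 and 677 CPM to 16.8 and 16.7 CPM. The other Treg markers moved with it, since 11 of 12 markers (Il2ra included) were called lower in FoxP3+CD25- cells and none higher. Their summed level was 344 to 497 CPM there, against 3430 to 3720 CPM in KO Tregs and 556 to 579 CPM in KO FoxP3-CD25- cells. The sum in FoxP3+CD25- cells was below that of KO FoxP3-CD25- cells and overlapped that of WT FoxP3-CD25- cells (291 to 425 CPM). Against KO FoxP3-CD25- cells 1 of the 12 markers was called higher and 2 lower, with a median log2 fold change of 0.39, so the median marker and the sum differed in sign. The Foxp3 call was lost when KO FoxP3+CD25+ replicate 1 or either FoxP3+CD25- library was left out, with log2 fold changes of -1.12 to -0.93 and FDR up to 0.126 over all alternatives.

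In FoxP3-CD25- cells, Foxp3 was not called between KO and WT (log2 fold change 0.66, SE 0.25, edgeR FDR = 0.511). Both KO libraries were above both WT libraries, but KO replicate 1 (38.8 CPM) was set apart from KO replicate 2 (19.5 CPM), which nearly met the WT values. Without KO FoxP3-CD25- replicate 1 the log2 fold change was 0.10, the lowest of all alternatives. Il2ra was also higher in that library (11.4 CPM, against 5.39 in KO replicate 2 and 3.55 and 1.54 in the WT libraries). The summed Treg markers, 556 and 579 CPM in the KO libraries and 291 to 425 in WT, were alike in the KO libraries. The part of Treg RNA in the Foxp3 values of these libraries was not tested.

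Exons of Foxp3 overlap those of Flicr on the same strand, over 853 bases (18.6% of the exon bases of Foxp3), and Flicr was not analysed here. They also overlap exons of genes on the opposite strand, and the library kit does not mark strand, so their reads cannot be told apart. Ccdc22, which encodes a subunit of an endosomal recycling complex, shares 590 exon bases with Foxp3 (12.9% of the exon bases of Foxp3). Its counts were 43.4 to 51.1 CPM in Tregs of both genotypes, 25.0 and 18.9 CPM in KO FoxP3+CD25- cells and 0.41 to 2.15 CPM in FoxP3-CD25- cells. Ccdc22 thus fell into the same order of groups as Foxp3, at much lower counts. Ppp1r3f (266 shared bases) was at 5.03 to 9.58 CPM in every library, and Gm36995 (373 shared bases) at no more than 2.13 CPM.

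Foxp1, a partner of FoxP3 that also keeps T cells quiescent, lies at chr6:98925338-99522721. It was at 423 and 395 CPM in WT Tregs, 359 and 388 in KO Tregs, 439 and 465 in the KO FoxP3+CD25- libraries, 422 and 446 in WT FoxP3-CD25- libraries, and 378 and 364 in KO FoxP3-CD25- cells. The FoxP3+CD25- libraries were above all other KO libraries, and the KO libraries of either other population were below every WT library. Foxp1 was called in no comparison by edgeR without a block. Its largest log2 fold changes were those of KO FoxP3+CD25- cells, 0.28 against KO FoxP3-CD25- cells (SE 0.10, edgeR FDR = 0.273) and 0.28 against KO Tregs (SE 0.10, FDR = 0.148). The difference from KO Tregs was called in a fit with the mouse as a block (FDR = 0.0401). Between KO and WT the log2 fold change was -0.23 in FoxP3-CD25- cells (FDR = 0.606) and -0.13 in Tregs (FDR = 1.0).

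Foxp4, the other FoxP factor of T cells, lies at chr17:47867133-47924645. Its level was 159 and 125 CPM in WT Tregs, 164 and 122 in KO Tregs, 128 and 78.3 in the KO FoxP3+CD25- libraries, 94.97 and 81.05 in WT FoxP3-CD25- libraries, and 116 and 82.6 in KO FoxP3-CD25- cells. Treg libraries were above FoxP3-CD25- libraries of their own genotype, and replicate 1 was above replicate 2 in all 5 groups, as it was for 1380 of the 13796 genes tested. By edgeR with the filter and no block, the log2 fold change between Tregs and FoxP3-CD25- cells was not called in WT (0.69, 95% interval 0.15 to 1.22, edgeR FDR = 0.111) or in KO (0.53, -0.01 to 1.06, FDR = 0.327). Libraries of the same number within a genotype deviated together across genes and were read as 1 mouse, and with the mouse as a block Foxp4 rose in Tregs of WT (0.68, edgeR FDR = 0.000285) and of KO (0.53, FDR = 0.0029). In that fit it fell by 0.50 from KO Tregs to FoxP3+CD25- cells (FDR = 0.00395). Without a block, Foxp4 was also called in WT Tregs by DESeq2 (FDR = 0.0302), with no filter (FDR = 0.0404) and without KO FoxP3+CD25- replicate 1 (FDR = 0.0468). The block also raised the number of genes called in these 3 comparisons by over 1.5 times, from 1504 to 2634, from 874 to 1651 and from 968 to 2090.

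Foxp3 made up most of the summed FoxP level per kilobase in Tregs, 71.2% to 73.1% over 4 libraries. The share was 57.6% and 58.2% in KO FoxP3+CD25- cells, and 7.41% to 14.2% in FoxP3-CD25- cells, where Foxp1 held 46.2% to 61.4%. Foxp2, the remaining FoxP gene, had at most 11 counts in a library.

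**Figure D2:**
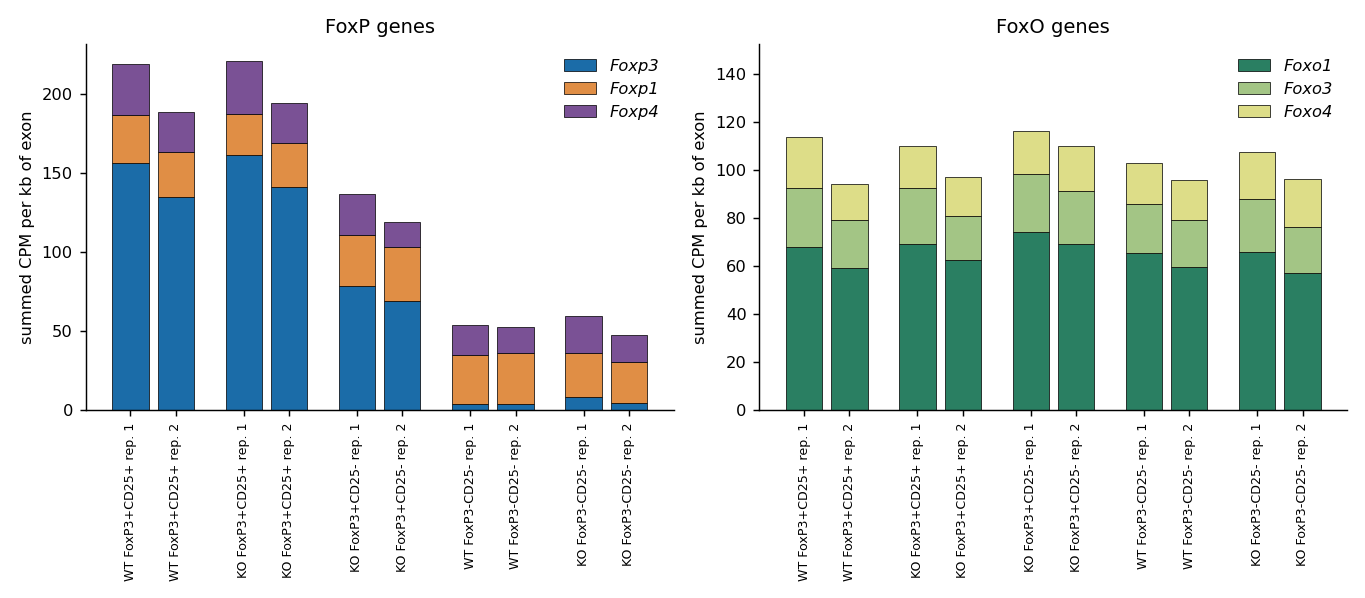
Summed CPM per kilobase of exon (vertical axes) in each of the 10 libraries, stacked by gene for the FoxP family (left) and the FoxO family (right). The FoxP sum follows Foxp3, which is 71.2% to 73.1% of it in Tregs and at most 14.2% in FoxP3-CD25- cells, while Foxo1 is 59.2% to 64.6% of the FoxO sum in every library.

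No FoxO gene was called in any comparison, by edgeR or under any of the 17 alternatives. Foxo1, which keeps Il7r and Klf2 on in naive T cells and is needed in Tregs, lies at chr3:52268336-52353221. It was at 588 and 513 CPM in WT Tregs, 602 and 544 in KO Tregs, 642 and 601 in the KO FoxP3+CD25- libraries, 566 and 519 in WT FoxP3-CD25- libraries, and 573 and 494 in KO FoxP3-CD25- cells. Every neighbouring pair in the order of group means overlapped, and replicate 1 was above replicate 2 in all 5 groups. The largest log2 fold change was 0.22 (SE 0.12, edgeR FDR = 0.65), for KO FoxP3+CD25- against KO FoxP3-CD25- cells, whose libraries did not overlap. Between WT Tregs and FoxP3-CD25- cells it was 0.02, with a 95% interval of -0.25 to 0.29. The antisense gene Gm20402 shares 674 exon bases with Foxo1 and was at 35.0 to 65.7 CPM.

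Foxo3, which is best known for its death and stress-response targets, lies at chr10:42181841-42276755. It was at 188 and 153 CPM in WT Tregs, 175 and 139 in KO Tregs, 182 and 166 in the KO FoxP3+CD25- libraries, 157 and 147 in WT FoxP3-CD25- libraries, and 167 and 146 in KO FoxP3-CD25- cells. All neighbouring group means overlapped in their libraries, and no log2 fold change exceeded 0.17 in size. The 95% intervals of its 6 differences between groups lay within -0.43 and 0.48.

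Foxo4, on the X chromosome (chrX:101254528-101260873), was at 74.5 and 52.3 CPM in WT Tregs, 60.8 and 56.0 in KO Tregs, 62.9 and 65.3 in the KO FoxP3+CD25- libraries, 58.4 and 57.7 in WT FoxP3-CD25- libraries, and 67.3 and 69.7 in KO FoxP3-CD25- cells. The highest and the lowest library were both WT Tregs. KO FoxP3-CD25- libraries were above KO FoxP3+CD25- libraries, and these were above KO Treg libraries. None of these differences was called, and the largest between groups was 0.24, for KO against WT FoxP3-CD25- cells (SE 0.15, edgeR FDR = 0.781). Without both WT libraries numbered 1, the libraries with Xist counts, the WT difference between Tregs and FoxP3-CD25- cells turned from 0.13 to -0.14, and that between KO and WT Tregs from -0.12 to 0.16. Foxo1 made up 59.2% to 64.6% of the summed FoxO level per kilobase in every library, and Foxo6 had no count in any library.

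Foxk1 was the single gene of the 7, other than Foxp3, that edgeR called with the filter, all 10 libraries and no block. It lies at chr5:142401497-142462011. Its level was 233 and 205 CPM in WT Tregs and 195 and 194 in KO Tregs. It was 259 and 269 CPM in the KO FoxP3+CD25- libraries, 291 and 302 in WT FoxP3-CD25- cells and 284 and 274 in KO FoxP3-CD25- cells. No neighbouring groups overlapped in the order WT FoxP3-CD25-, KO FoxP3-CD25-, KO FoxP3+CD25-, WT Treg, KO Treg, which groups of 2 libraries can do by chance. The neighbouring steps that were tested, all but KO FoxP3+CD25- cells against WT Tregs, were not called. Foxk1 fell by 0.43 on the log2 scale in WT Tregs against WT FoxP3-CD25- cells (95% interval -0.65 to -0.22, edgeR FDR = 0.0154), to 0.74 times the level. In KO it fell by 0.52 (-0.74 to -0.30, FDR = 0.0103), to 0.697 times. From KO Tregs to KO FoxP3+CD25- cells it rose by 0.44 (0.22 to 0.66, FDR = 0.0214). Against KO FoxP3-CD25- cells the FoxP3+CD25- cells differed by -0.08 (-0.30 to 0.14, FDR = 0.928), although the libraries did not overlap. KO and WT Tregs differed by -0.17 (FDR = 1.0), and the difference between their Treg contrasts was -0.08 (interval -0.39 to 0.22). All 3 calls kept their direction under every alternative. Each was lost when 1 library of the groups compared was left out, with FDR from 0.0502 to 0.144, except that the WT call held without WT FoxP3+CD25+ replicate 1 (FDR = 0.0152). Its paralogue Foxk2 was at 57.2 to 74.9 CPM in all libraries and was called in no comparison, with log2 fold changes of 0.01 and 0.08 between Tregs and FoxP3-CD25- cells of WT and KO.

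**Figure D3:**
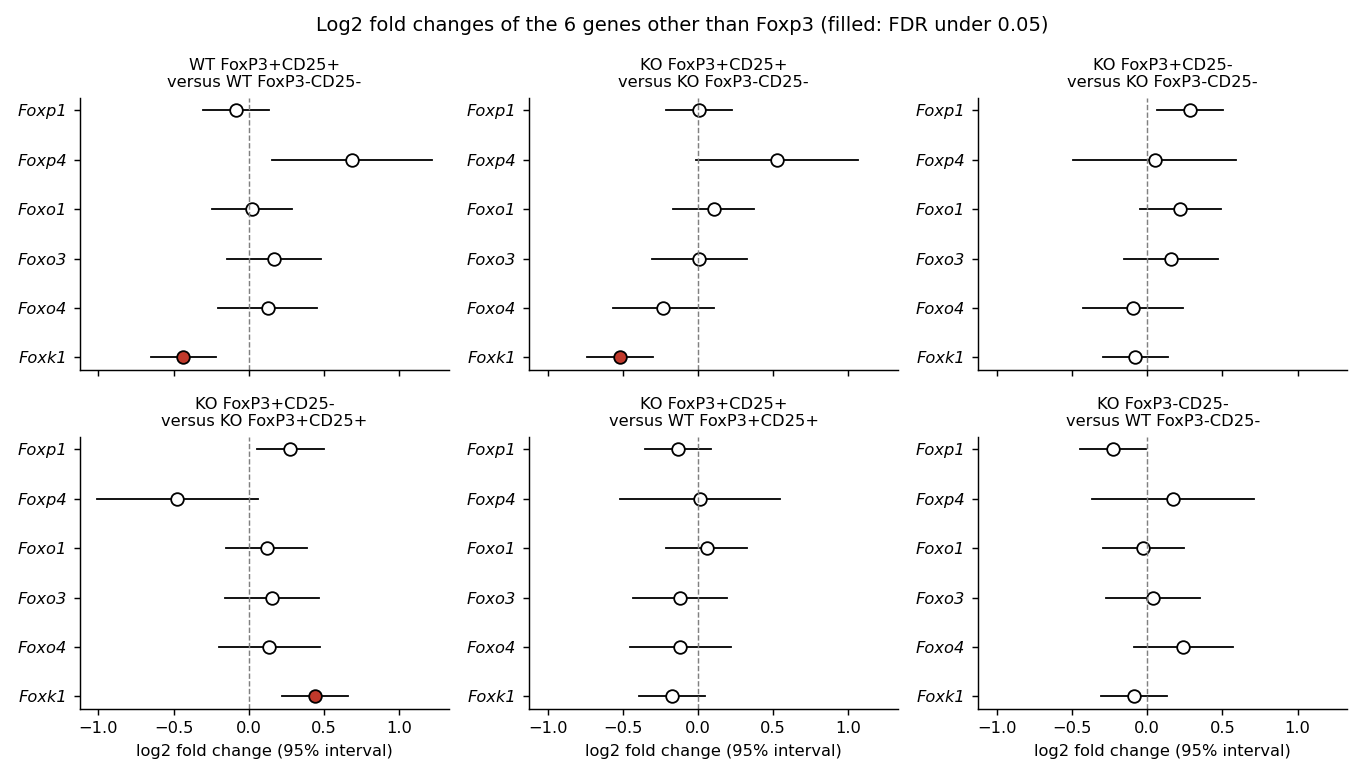
Log2 fold changes (horizontal axes) with 95% intervals (lines) for the 6 forkhead genes other than Foxp3 in 6 comparisons, from the fit of all 10 libraries without a block. Filled points passed FDR 0.05, and these are Foxk1 in 3 comparisons, at -0.43, -0.52 and 0.44.

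Of 37 further forkhead genes, 7 passed the filter, 30 did not, and 16 had no count in any library. Foxj2 (104 to 130 CPM), Foxj3 (83.4 to 101) and Foxk2 were called in no comparison, nor were Foxd2 (0.589 to 2.73) and Foxm1 (2.5 to 5.02), the latter a factor of the G2 to M phase. Foxn3, a repressor of the cell cycle, rose in WT Tregs to 142 and 165 CPM from 83.1 and 112 CPM in FoxP3-CD25- cells (log2 fold change 0.66, edgeR FDR = 0.02), and in KO its log2 fold change was 0.52 (FDR = 0.0892). Foxn2 fell by 0.50 in KO Tregs, at 99.6 and 109 CPM against 144 and 150 CPM (FDR = 0.016), and in WT its log2 fold change was -0.13 (FDR = 0.539). Whether these changes differ between genotypes was tested for both, with FDR = 1.0 for Foxn3 and 0.942 for Foxn2. The Foxn3 call was lost without both WT libraries numbered 1, without WT FoxP3-CD25- replicate 1 alone and without WT FoxP3+CD25+ replicate 2. Its log2 fold changes ran from 0.448 to 0.885 over all alternatives. The Foxn2 call was lost without any 1 of its own 4 libraries, with log2 fold changes of -0.567 to -0.433 over all alternatives.

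FoxO target genes changed in both directions while the FoxO transcripts themselves were not called. In WT Tregs 7 of 26 listed targets rose and 3 fell against FoxP3-CD25- cells, where 10.9% of all genes were called. The list median was 0.06 against -0.02 over all genes. This list and those below were chosen with earlier results of these data known, so the shares of all genes are given as a description. Il7r, the receptor chain for IL-7, was at 299 and 409 CPM in WT Tregs and 902 and 1149 CPM in FoxP3-CD25- cells (log2 fold change -1.53, SE 0.18, edgeR FDR = 0.000305). The homing receptors S1pr1 (-0.89, FDR = 0.00144) and Ccr7 (-0.81, FDR = 0.0017) fell as well. Ctla4, an inhibitory receptor that is also a Treg marker and a target of FoxP3, was at 674 and 488 CPM in WT Tregs and 97.0 and 47.9 CPM in FoxP3-CD25- cells (2.999, SE 0.47, FDR = 0.00181). The autophagy gene Gabarapl1 (2.21, FDR = 0.000344) and the cell-cycle repressor Klf4 (1.20, FDR = 0.00971) rose, as did Trp53inp1 (0.73), Rbl2 (0.54), Fbxo32 (0.54) and Ccng2 (0.37). Of these WT calls, those of Il7r, S1pr1, Ccr7, Ctla4 and Gabarapl1 held under all 17 alternatives. That of Fbxo32 held under 6 and that of Ccng2 under 5, both lost with no filter, and those of Klf4, Trp53inp1 and Rbl2 under 13 or 14. Klf4, Trp53inp1, Rbl2, Fbxo32 and Ccng2 were each lost without both WT libraries numbered 1 and without WT FoxP3-CD25- replicate 1 alone, with FDR up to 0.275.

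In KO Tregs 3 of 26 targets rose and 3 fell, where 6.34% of all genes were called. Il7r (-1.23), Ctla4 (2.29) and Gabarapl1 (1.27) changed in the same direction as in WT. S1pr1 (-0.58) and Cited2 (-0.55) also fell there, and Bcl2l11, which encodes the death factor Bim, rose (0.64, edgeR FDR = 0.0347). No target was called between KO FoxP3+CD25- and KO FoxP3-CD25- cells, against 1.67% of all genes. Against KO Tregs the FoxP3+CD25- cells had 3 targets higher and 2 lower, where 7.02% of all genes were called. Higher were Il7r (1.501), S1pr1 (0.87) and Pik3ip1 (0.86), and lower were Ctla4 (-2.54) and Gabarapl1 (-1.64). These calls of Il7r held under all 17 alternatives, as did those of S1pr1, Ctla4 and Gabarapl1 against KO Tregs. That of Pik3ip1 held under 10 of 17, with FDR up to 0.235, and was lost with library size alone and without any 1 of the 6 KO libraries. In KO Tregs against FoxP3-CD25- cells the calls of S1pr1 and Cited2 were lost without any 1 library of the groups compared. That of Bcl2l11 was lost without KO FoxP3+CD25+ replicate 1 or any 1 FoxP3-CD25- library of either genotype. That of Ctla4 was lost without KO FoxP3+CD25+ replicate 1 or KO FoxP3-CD25- replicate 2. That of Gabarapl1 was lost without KO FoxP3+CD25+ replicate 2 or KO FoxP3-CD25- replicate 1. No target was called by edgeR between genotypes.

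The genes of the PI3K to Akt route, which sets where FoxO proteins sit in the cell, were called in both directions. In WT Tregs 2 of 34 rose and 3 fell, where 10.9% of all genes were called. Phlpp1, a phosphatase that acts on Akt, was at 68.7 and 64.6 CPM in WT Tregs against 18.4 and 21.9 CPM (log2 fold change 1.73, edgeR FDR = 3.71e-05), and Inpp4b, a lipid phosphatase of the same route, rose by 0.76 (FDR = 0.00335). Sgk1, a kinase that also phosphorylates FoxO proteins, fell by 1.71 (FDR = 0.000518), Pik3r5, a regulatory subunit of PI3K gamma, by 0.96, and Pik3cd, the PI3K delta catalytic subunit, by 0.40 (FDR = 0.0338). In KO Tregs 5 of 34 were called, against 6.34% of all genes: Phlpp1 (1.495) and Inpp4b (0.70) rose and Sgk1 (-1.56), Pik3r5 (-0.72) and Stk4 (-0.53) fell. KO FoxP3+CD25- cells differed from KO Tregs in Phlpp1 (-1.17), Pik3r5 (0.86) and Sgk1 (0.85), each opposite in sign to the Treg difference of the same mice, with which they share libraries. Between KO FoxP3+CD25- and KO FoxP3-CD25- cells 0 of 34 were called by edgeR. The calls of Phlpp1, and those of Sgk1 in Tregs, held under all 17 alternatives, while that of Pik3cd held under 9 and that of Sgk1 between KO FoxP3+CD25- cells and KO Tregs under 12. That of Stk4 in KO held under 12 and was lost without any 1 of its own 4 libraries (FDR up to 0.283).

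**Figure D4:**
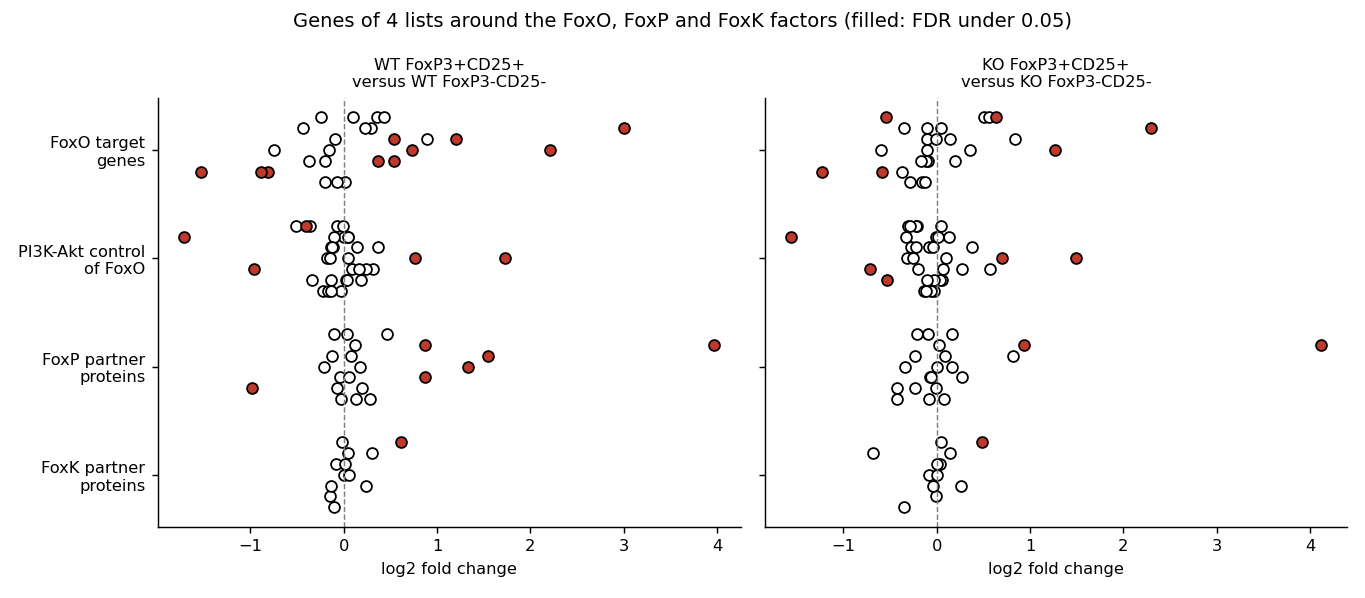
Log2 fold changes (horizontal axes) of Tregs against FoxP3-CD25- cells in WT (left) and KO (right), 1 point a gene, for 4 lists of genes around the FoxO, FoxP and FoxK factors. Filled points passed FDR 0.05, among them Ikzf4 (3.97 and 4.12), Ctla4 (2.999 and 2.29), Phlpp1 (1.73 and 1.495) and Sgk1 (-1.71 and -1.56), and vertical offsets within a list only keep points apart.

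Of 22 genes for partners of FoxP proteins 21 were tested. In WT Tregs 1 fell and 5 rose, where 10.9% of all genes were called. Among those that rose, Ikzf4 (Eos, a corepressor) was at 245 and 204 CPM against 16.3 and 12.2 CPM (log2 fold change 3.97, edgeR FDR = 1.02e-06). The NF-kappaB subunit Rel (0.87, FDR = 0.00172) and the lineage factors Gata3 (0.88), Rora (1.33) and Irf4 (1.55, FDR = 0.0482) made up the others. Satb1, here listed as a partner, fell by 0.99 in WT Tregs (FDR = 0.00178), and its difference in KO, -0.43, was not called (FDR = 0.163). It was called higher in KO FoxP3+CD25- cells than in KO Tregs (0.946, edgeR FDR = 0.00377), and this call held under all 17 alternatives. The calls of Gata3, Rora and Irf4 were lost without both WT libraries numbered 1 (FDR up to 0.303), and those of Ikzf4 and Rel held. In KO Tregs 2 rose, Ikzf4 (4.12) and Rel (0.93), and none fell, where 6.34% of all genes were called. In KO FoxP3+CD25- cells Ikzf4 was at 31.3 and 28.6 CPM, higher than in KO FoxP3-CD25- cells (1.44, FDR = 0.00494) and lower than in KO Tregs (-2.68, FDR = 1.83e-05). Against KO Tregs these cells had 1 partner called higher, Satb1, and 5 lower, where 7.02% of all genes were called. Beside Ikzf4, the lower ones were Rel (-0.935), Rora (-1.567), Irf4 (-1.865) and Ezh2 (-0.553). The calls of Rora, Irf4 and Ezh2 there held under 15, 15 and 14 of 17 alternatives.

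Ezh2, the methyltransferase of the Polycomb repressive complex, was the sole listed partner called between genotypes. It was at 85.2 and 78.0 CPM in KO FoxP3-CD25- cells and 47.0 and 48.5 CPM in WT FoxP3-CD25- cells (log2 fold change 0.77, edgeR FDR = 0.0238). It fell by 0.89 from KO FoxP3-CD25- to KO FoxP3+CD25- cells (FDR = 0.00277), where it was at 44.5 and 43.2 CPM. The genotype call held under 8 of 17 alternatives. Among these is the block within genotypes, which here sets KO mouse 1 against WT mouse 1 and so is no test of genotype. The call was lost without both WT libraries numbered 1, without either WT FoxP3-CD25- library and without any 1 of the KO libraries. Log2 fold changes ran from 0.72 to 0.84 over the alternatives. Rora was also lower in KO FoxP3+CD25- than in KO FoxP3-CD25- cells, at 39.5 and 28.6 CPM against 99.7 in both (-1.56, FDR = 0.0335), and this call held under 12 of 17 alternatives.

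Among 12 partners of FoxK proteins, Asxl1, a subunit of the Polycomb deubiquitinase, was called. It rose in Tregs of WT (336 and 286 CPM against 203.5 and 203.1 CPM in FoxP3-CD25- cells, log2 fold change 0.61, edgeR FDR = 0.00556) and of KO (0.48, FDR = 0.0322), and it fell by 0.55 from KO Tregs to KO FoxP3+CD25- cells (FDR = 0.0156). Foxk1 was called in these comparisons too, with the opposite sign, and no link between Foxk1 and Asxl1 was tested. Of the 12 partners, Asxl1 alone was called in each, where 10.9%, 6.34% and 7.02% of all genes were called, and the KO comparisons share libraries. The WT call was lost without both WT libraries numbered 1 (FDR = 0.121), and the KO call held under 11 of 17 alternatives. No other listed FoxK partner passed the test in any comparison.

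The genes whose log2 CPM was most like that of each forkhead gene over the 10 libraries were named by Pearson's r, as a description, since the libraries share mice and groups. Ccdc22 (r = 0.997), Gm16731 (0.983) and Coro2a (0.979) were nearest to Foxp3. Klhl18 (0.988), Mboat1 (0.984) and 9830144P21Rik (0.981) were nearest to Foxk1, and Tial1 (0.983), Nr4a3 (0.977) and Cdc14a (0.975) to Foxp4. The nearest genes were less alike for Foxo1 (Cpeb4, 0.961), Foxo4 (Khnyn, 0.937), Foxo3 (Dhx38, 0.926) and Foxp1 (RP23-414P13.3, 0.924), whose own spans were small.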

How the data were processed

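RNA from sorted splenic CD4+ T cells was made into NEBNext Ultra libraries and sequenced to 50-base reads, per the labels, and this kit does not mark strand. The authors aligned reads to mm10 (GRCm38) with HISAT2 (version 2.1.0) and deposited raw counts per gene symbol from HTSeq (version 0.11.1 in the submitters' processing notes; the annotation, overlap mode and strand setting are not given in the sources used here). HTSeq tallies of unassigned reads were left out, and 26.0% to 28.5% of reads were on genes. Positions and exon lengths came from GENCODE M21 on mm10, in which 46294 of the 48321 symbols named 1 gene.

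Groups came from the sample titles, and numbers in titles (WT1, KO2) were read as mice, which the titles imply and do not state. All 10 libraries entered 1 edgeR model (version 4.0.16, R 4.3.3, limma 3.58.1) with a mean per group, filterByExpr (minimum count 10), TMM factors, two-sided quasi-likelihood F-tests and Benjamini-Hochberg adjustment over 13796 genes, called at FDR 0.05. The shared biological coefficient of variation was 0.147 on 5 residual degrees of freedom, so 2 libraries a group limit what can be called. CPM use TMM factors, and likeness used log2 CPM with a prior count of 2. Intervals are 95%, and floors cover counting error only. Replicates were not duplicates, differing by 7.27 to 21.0 times the counting variance. Deviations of same-numbered libraries correlated at 0.303 to 0.445 within a genotype and at 0.0785 and 0.0415 across genotypes, so the mouse was used as a block within genotypes as an alternative. The other alternatives were DESeq2's (RLE) factors, library size alone, no filter, DESeq2 (version 1.42.0), a block by number across genotypes, both WT libraries numbered 1 left out, and each library left out in turn. The steps were tested on simulated data.

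The helix sequence of 1 gene is not reported here. The 7 genes and the lists were chosen with earlier results of these data known. Named beside the 7 genes were genes whose exons overlap theirs, forkhead genes past the filter, the 3 genes most like each of the 7, and up to 6 called genes of lowest p per list in WT (3 in other comparisons), while the other genes named were added after their values were seen, to complete a list's calls. Tables, sequences and figures used Python (version 3.11.15) with NumPy (2.4.6), pandas (2.3.3), Biopython (1.88) and matplotlib (3.10.9).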

Additional observations from a re-analysis of the deposited data

How the results depend on the processing

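The counts of called genes depended on the fit more than the values of the 7 forkhead genes did. In the order WT Tregs against non-Tregs, KO Tregs against non-Tregs, KO FoxP3+CD25- cells against KO non-Tregs, against KO Tregs, KO against WT Tregs, KO against WT non-Tregs, and the difference of the Treg contrasts, edgeR called 1504, 874, 230, 968, 1, 20 and 0 genes, and with the mouse as a block within genotypes 2634, 1651, 787, 2090, 301, 256 and 149. In the fifth and the sixth, that block sets KO mouse 1 against WT mouse 1, which also differed in Xist and Y-linked counts. The 301 and 256 genes are therefore no test of genotype. Under that pairing 3, 3, 1, 4 and 0 of the 7 genes were called in the remaining comparisons, in place of 2, 2, 1, 2 and 0. Foxp3, the gate, is counted in the first 3. The block changed no other call among the 7 than those of Foxp4 and Foxp1. A block by number across genotypes gave 403, 4, 108 and 10 genes in the third, the fifth, the sixth and the seventh comparison, with 3 of the 7 called in the first, the second and the fourth. In those comparisons no filter gave 411, 5, 91 and 7 genes and DESeq2 366, 5, 111 and 25, with 3 of the 7 called by both in the first. Library size alone gave 31 genes in the sixth, and without both WT libraries numbered 1 there were 715 in the first, 3 in the fifth and 14 in the sixth. Leaving out each library in turn gave 828 to 2183, 396 to 1030, 30 to 323, 410 to 1189, 1 to 7, 0 to 50 and 0 to 121 genes, the first falling most without WT FoxP3-CD25- replicate 2. Of the 7 it gave 1 to 3, 1 to 2, 1, 0 to 2 and 0 in the last 3. When a library was left out, its group rested on the other one, which was assumed to vary like the other groups.

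Each reversed log2 fold change was of a gene that was not called. Without both WT libraries numbered 1, WT Tregs against non-Tregs gave -0.012 for Foxo1 and -0.135 for Foxo4, KO against WT Tregs 0.034 for Foxo3 and 0.158 for Foxo4, KO against WT non-Tregs 0.043 for Foxo1 (0.003 with library size alone), and the difference of contrasts 0.037 for Foxk1. Leaving out single libraries moved WT Tregs against non-Tregs from -0.072 to 0.133 (Foxo1) and -0.14 to 0.377 (Foxo4), and KO Tregs against non-Tregs from -0.051 to 0.063 (Foxp1), -0.001 to 0.213 (Foxo1) and -0.171 to 0.165 (Foxo3). It moved KO FoxP3+CD25- cells from -0.346 to 0.369 (Foxp4, against non-Tregs) and -0.007 to 0.329 (Foxo3, against Tregs). KO against WT Tregs ran from -0.052 to 0.167 (Foxp3), -0.214 to 0.209 (Foxp4), -0.043 to 0.16 (Foxo1), -0.297 to 0.039 (Foxo3) and -0.357 to 0.158 (Foxo4). KO against WT non-Tregs ran from -0.085 to 0.399 (Foxp4), -0.128 to 0.077 (Foxo1) and -0.055 to 0.13 (Foxo3), and the difference of contrasts from -0.387 to 0.11 (Foxp4), -0.026 to 0.198 (Foxo1), -0.334 to 0.002 (Foxo3) and -0.188 to 0.005 (Foxk1). The cause was not tested, beyond the smaller number of libraries. The other values of the 7 genes under alternatives kept their direction, 770 of them also their side of the threshold. With 2 libraries a group, standard errors of 0.12 to 0.15 on the log2 scale limit what can be detected for the FoxO genes.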

Other observations

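Foxp3, Foxp4, Foxo1 and Foxo3 were each higher in replicate 1 than in replicate 2 in all 5 groups, whereas Foxp1, Foxo4 and Foxk1 were not. Among the 13796 genes tested, 1380 had that order in all 5 groups and 1171 the reverse. The numbers were read as different mice in WT and KO, and 2 of the 5 groups came from WT mice and 3 from KO mice.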
